A study of Mus musculus with 22 samples.

Results

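The proliferins are a small group of near-identical mouse genes of the prolactin family, and the array carried probes for 2 of the 4 examined here. Members were taken by symbol (Prl2c1, Prl2c2, Prl2c3 and Prl2c5), through the transcript accession that the array design gives for each probe. Prl2c1 was matched by 1 probe, A_55_P2183208, and Prl2c5 by 2 probes, A_52_P619248 and A_55_P2004752, while no probe was matched to Prl2c2 or Prl2c3. These 3 probes stand among 55681 on the array, of which 26413 could be named for 20018 genes. The members were picked because their signal in exposed cells differed from that in control cells, so that comparison is given below as a description without a test.

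Proliferins are secreted glycoproteins related to prolactin and growth hormone. They are best known from the placenta, where trophoblast giant cells release them and where they promote the growth of blood vessels, and from cultured fibroblasts, in which serum and growth factors switch them on. They bind the receptor for insulin-like growth factor II and mannose 6-phosphate, and a binding site for AP-1, the dimer of Fos and Jun proteins, is a known element of a proliferin promoter.

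RNA was taken from FE1, a single epithelial cell line from the lung of the transgenic MutaMouse, exposed for 24 h to Mitsui7, nanotubes of carbon with several walls. The controls were 5 arrays at 0 µg/ml, and the exposed groups were 6 arrays at 12.5 µg/ml (low dose), 5 at 25 µg/ml (medium dose) and 6 at 100 µg/ml (high dose). All cells, controls included, grew in medium with fetal bovine serum and murine epidermal growth factor. The cells' RNA was labelled with Cy5 and a universal mouse reference RNA with Cy3 throughout, with no dye swap, so each value is a log2 ratio of the sample to the same reference. The study's methods name fewer separate exposure experiments than a group has arrays, and which array came from which experiment is not given. Each n below therefore counts arrays and not independent exposures. SEs and p-values measure the spread between arrays, which may be technical in part.

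Of the 5 slides used for the 22 arrays, slide 1 carried every group 2 times, slides 2, 3 and 4 carried every group once, and slide 5 carried a low and a high dose array. Between 23688 and 39139 probes per array exceeded the negative control level in Cy5. Precision depends on how many arrays a group has and on the spread of the probe. Of the 17 exposed arrays, 11 resembled the mean profile of their own dose most, over 28879 probes after adjustment for slide. The library labelled low dose replicate 1 correlated at -0.40 with the other low dose arrays and at 0.32 with the medium dose, and the library labelled medium dose replicate 2 at -0.43 with its own dose and at 0.18 with the low dose. The others were medium dose replicates 1 and 5 and high dose replicates 2 and 6, the last at 0.32 with the medium and 0.05 with its own dose. Comparisons of the members are therefore given with and without the first 2 libraries. Each other array was left out in turn, with 0 members called between doses.

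The labelled cell type was checked against marker genes. Of 14 lung epithelial markers, the defining genes Cdh1, Nkx2-1 and Sftpa1, and also Sftpb and Foxj1, were not detected on any of the 5 control arrays. Epcam was detected on 2 of 5. Aqp5 and Sftpc were detected on 3, Scgb1a1 and Cldn4 on 4, and Hopx on 5, at a mean log2 ratio of 2.33. Aqp5, Sftpc, Scgb1a1 and Cldn4 were near the detection level. Their median Cy5 signals over all arrays were 1.32, 1.29, 1.55 and 1.06 times the negative control level. The keratin genes Krt8, Krt18 and Krt19 were detected on 5, 5 and 4 control arrays, with mean log2 ratios to the reference of -4.35, -5.62 and -4.91. All 8 fibroblast markers were detected, among them Col1a1 at a mean log2 ratio of 1.77 in controls. Of 13 markers of trophoblast, the cell type that makes proliferin in the placenta, Hand1, Cdx2 and Ctsq were not detected on any array, while Gata2, Gata3, Gcm1 and Synb were detected on 5 of 5 controls and Tfap2c on 4.

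All 66 member spots were well above background in both channels, 0 were saturated, and the dimmest control spot was 2.90 times the negative control level. One of the 66, A_55_P2004752 on high dose replicate 4, was marked as an outlier by the scanner software and was set to missing, so the high dose has 5 values for that probe. Because the genes are near-identical, a probe designed on 1 of them may also bind transcripts of the others, and the values below belong to probes. The probe sequences were not used here.

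**Figure D1:**
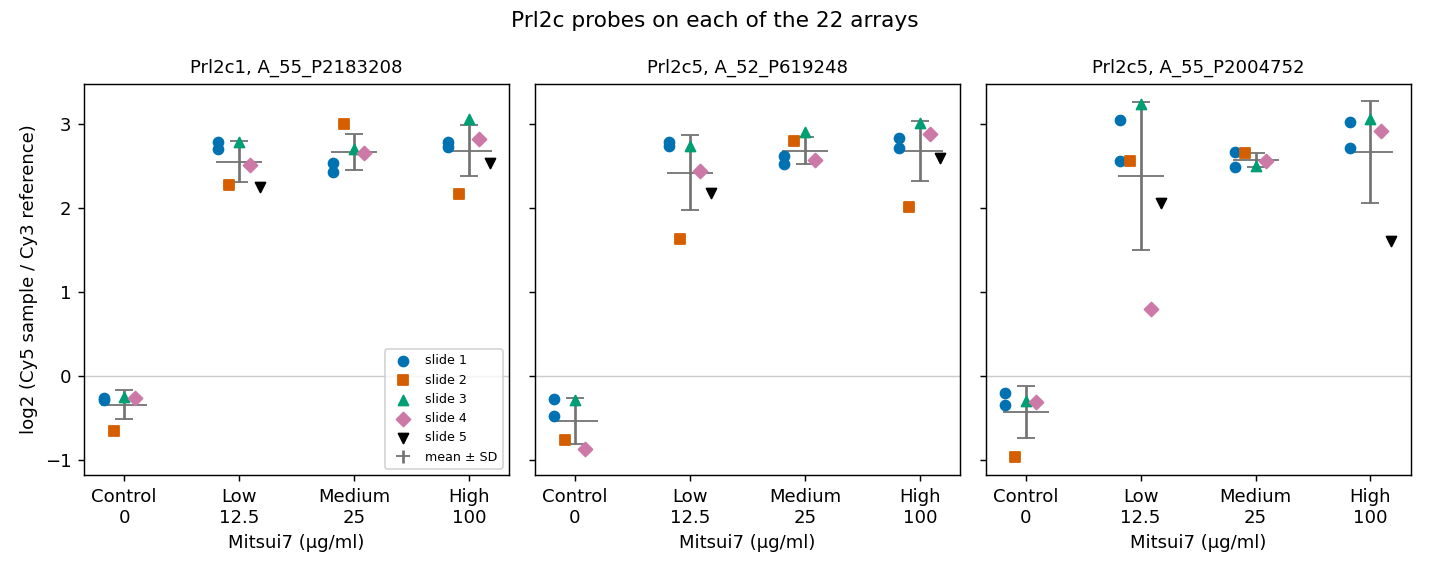
Log2 ratio of sample to reference (vertical axis) of the 3 Prl2c probes, 1 panel each, on every array of the control, low, medium and high dose groups (horizontal axis, Mitsui7 in µg/ml). Symbols mark the slide, and grey bars show the mean and SD of a group; every exposed array lies above every control, and low dose replicate 6 of A_55_P2004752, at 0.80, lies lowest among the exposed arrays.

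The single probe of Prl2c1 was near the level of the reference in control cells, at log2 ratios of -0.28, -0.26, -0.24, -0.65 and -0.26. At the low dose the 6 arrays ranged from 2.26 to 2.79 with a median of 2.61, at the medium dose the 5 arrays gave 2.43, 2.54, 2.70, 3.00 and 2.66, and at the high dose the 6 arrays ranged from 2.17 to 3.06 with a median of 2.76. Every exposed array thus lay above every control array, the nearest pair being 2.42 apart, while the 3 doses overlapped one another. Expressed on a linear scale, the mean Prl2c1 signal was 0.792 times the reference in controls and 5.88, 6.35 and 6.43 times the reference as the dose rose. Adjusted for slide, the Prl2c1 ratio was higher than control by 2.94 (SE 0.13, n = 6), 3.00 (SE 0.13, n = 5) and 3.07 (SE 0.13, n = 6) on the log2 scale, which is 7.66-fold, 8.02-fold and 8.38-fold.

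Prl2c5 was read by 2 probes. Probe A_52_P619248 gave -0.48, -0.27, -0.28, -0.76 and -0.86 in controls, 1.64 to 2.79 (median 2.60, n = 6) at the low dose, 2.53, 2.62, 2.90, 2.81 and 2.58 at the medium dose and 2.01 to 3.01 (median 2.78, n = 6) at the high dose. Its exposed arrays also lay above every control, with low dose replicate 4 and high dose replicate 4, both on slide 2, the lowest of their doses. Its slide-adjusted ratio exceeded control by 2.99 (SE 0.15, 7.92-fold), 3.22 (SE 0.15, 9.30-fold) and 3.24 (SE 0.15, 9.44-fold) at the low, medium and high dose.

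Probe A_55_P2004752 of Prl2c5 gave -0.20, -0.34, -0.29, -0.96 and -0.30 in controls, 0.80 to 3.24 (median 2.56, n = 6) at the low dose, 2.67, 2.49, 2.50, 2.66 and 2.56 at the medium dose and 3.03, 2.71, 3.06, 1.61 and 2.92 at the high dose. This was the most scattered of the member probes, with an SD of 0.88 at the low dose and 0.60 at the high dose against 0.09 at the medium dose. Low dose replicate 6 and high dose replicate 5 were the lowest of their doses. The spot of this probe lay on the last row of the array grid, row 384 of 384. Its local background was marked as an outlier on most arrays, low dose replicate 6 among them but not high dose replicate 5. The background of the Prl2c1 spot was not marked on any array. The part of this in the values of A_55_P2004752 was not tested. Even so, the lowest exposed array stood 1.00 above the highest control. Its slide-adjusted ratio exceeded control by 2.94 (SE 0.28, 7.67-fold), 2.99 (SE 0.29, 7.97-fold) and 3.22 (SE 0.29, 9.35-fold).

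Among all detected probes ranked by increase over control, the 3 member probes took places 3, 4 and 5 of 30652 at the low dose, 3, 5 and 6 of 29722 at the medium dose and 5, 6 and 8 of 32283 at the high dose. All 3 met the rule used here for a changed probe (limma, adjusted p at most 0.05, at least 1.5-fold, and detection on 4 or more arrays of 1 of the groups), as did 1.35%, 2.72% and 3.34% of detected probes in the upward direction. Every exposed array lay above every control for 3 of 3 member probes, and for 1.43%, 3.23% and 3.44% of detected probes in the order of dose. These counts describe the choice of the members and carry no further weight. The 3 comparisons share their control arrays. The median over the 3 probes was 2.94, 3.00 and 3.22, while the median of all detected probes was 0.01 at each dose. Without low dose replicate 1 and medium dose replicate 2 these medians were 2.90, 3.04 and 3.22.

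The probes were compared with one another on the same array, as differences of their log2 ratios. Prl2c1 minus A_52_P619248 had a median of 0.04 and ranged from -0.20 to 0.64 over 22 arrays. Prl2c1 minus A_55_P2004752 ranged from -0.46 to 1.72 and A_52_P619248 minus A_55_P2004752 from -0.93 to 1.65 over 21 arrays, with medians of 0.06 and 0.02. The ratios of the Prl2c1 probe and of A_52_P619248 were thus close on an array although they were designed on different genes, and the probe that differed most was 1 of the 2 of Prl2c5. How much of this is cross-binding of near-identical transcripts was not tested.

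The difference was present in the dye channel of the cells. In Cy5 alone the 3 probes were higher than control by 2.61 to 3.02 (low dose), 2.89 to 3.16 (medium dose) and 3.04 to 3.22 (high dose; log2 signal, slide-adjusted). In Cy3, the reference channel, A_52_P619248 differed from control by 0.03, -0.06 and -0.02 with an SE of 0.07 each, and Prl2c1 by 0.01, -0.12 and 0.03 with an SE of 0.12. The exception was A_55_P2004752, whose Cy3 signal was below control by 0.32 (SE 0.09) at the low dose and by 0.18 (SE 0.09) at the high dose. For this probe the Cy5 difference at the low dose was accordingly 2.61 (SE 0.31), less than its ratio difference of 2.94.

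**Figure D2:**
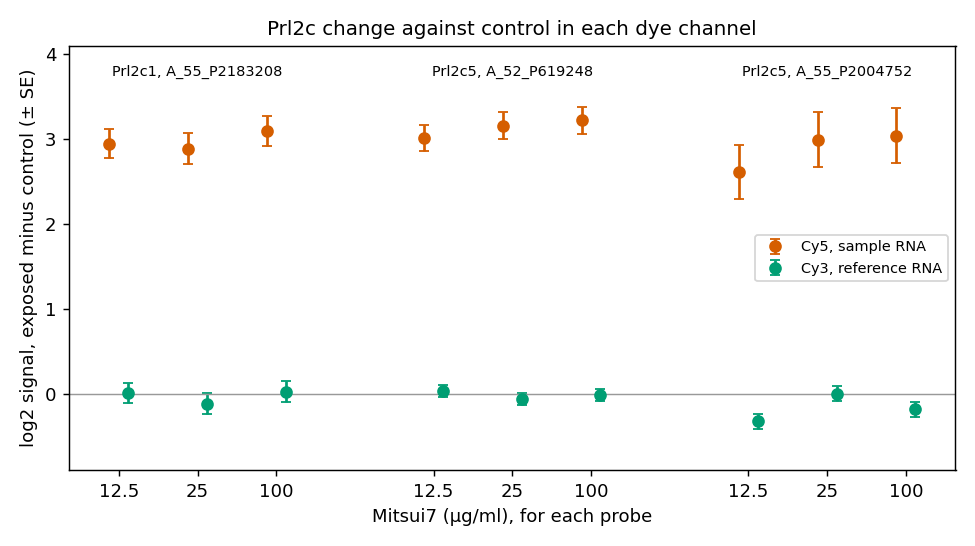
Log2 signal of exposed minus control arrays (vertical axis, ± SE) at each Mitsui7 concentration (horizontal axis, µg/ml) for the 3 Prl2c probes, orange for Cy5, the sample, and green for Cy3, the reference. Cy5 differences lie between 2.61 and 3.22, and Cy3 differences between -0.32 and 0.03.

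Within single slides, which hold exposed and control arrays hybridised together, the 3 probes exceeded control by 1.10 to 3.54 in 12 low dose values, 2.76 to 3.64 in 12 medium dose values and 2.77 to 3.74 in 11 high dose values. The value of 1.10 belongs to A_55_P2004752 on slide 4, where the other 2 probes gave 2.78 for Prl2c1 and 3.31 for A_52_P619248. None of these differences from control was below 0.

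Whether the level depended on the concentration was tested between doses. These differences take no control array and were not used to choose the members, though the controls enter the shared spread of the model. Of the 3 member probes, limma called 0 for medium against low, 0 for high against low and 0 for high against medium, and 0 had an unadjusted p under 0.05 in any of them. Among all detected probes, 0% were called for medium against low, 0.26% for high against low and 0% for high against medium.

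For Prl2c1 the medium dose exceeded the low dose by 0.07 (95% interval -0.20 to 0.33, limma adjusted p 0.958) and the high dose exceeded the low dose by 0.13 (-0.12 to 0.38, limma adjusted p 0.845). The high dose exceeded the medium dose by 0.06 (-0.20 to 0.33, limma adjusted p 1.00). With intervals that end at 0.38, a difference of 1.5-fold lay outside all 3 for this probe, while the concentration ran from 12.5 to 100 µg/ml. For A_52_P619248 the differences were 0.23 (-0.08 to 0.54, limma adjusted p 0.873), 0.25 (-0.03 to 0.54, limma adjusted p 0.663) and 0.02 (-0.29 to 0.33, limma adjusted p 1.00) for medium against low, high against low and high against medium. For A_55_P2004752 they were 0.06 (-0.53 to 0.64, limma adjusted p 0.986), 0.29 (-0.27 to 0.85, limma adjusted p 0.849) and 0.23 (-0.37 to 0.83, limma adjusted p 1.00), intervals wide enough to hold a 1.5-fold difference.

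All 9 differences were above 0, but the doses overlapped on every probe. The order by slide-adjusted level was control, low, medium, high for each probe, and of the neighbours in this order only control and low did not overlap. Within slides the differences between doses took both signs over the 3 probes together, from -0.74 to 1.76 for medium against low, -0.44 to 2.12 for high against low and -0.82 to 0.56 for high against medium. By probe, high minus low of A_52_P619248 was above 0 on all 5 slides (0.02, 0.37, 0.27, 0.43 and 0.42), while both ends of that range belong to A_55_P2004752. Without low dose replicate 1 and medium dose replicate 2, medium minus low was 0.14 for Prl2c1, 0.33 for A_52_P619248 and 0.20 for A_55_P2004752 (limma adjusted p 0.768, 0.444 and 0.864), and high minus medium of A_52_P619248 turned to -0.02. A p above the threshold does not show that the doses were alike.

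**Figure D3:**
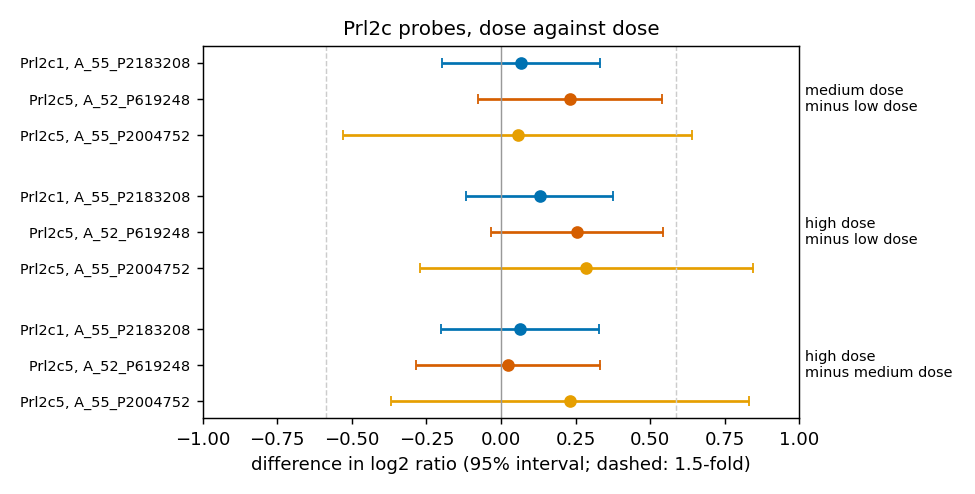
Differences in log2 ratio between doses (horizontal axis, with 95% intervals) for the 3 Prl2c probes, grouped by the pair of doses. Solid and dashed vertical lines mark 0 and 1.5-fold in either direction; the 9 points lie between 0.02 and 0.29, and all 9 intervals include 0.

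The letters upstream of the genes are shown because an AP-1 site is a known element of a proliferin promoter. They also allow Prl2c3, which has no matched probe, to be set beside the measured Prl2c5. RefSeq windows for GRCm38.p6 were at hand for these 2 of the 4 genes. The 250 bases before the start site of Prl2c3 lie at chr13:12800080-12800329 on the minus strand and those of Prl2c5 at chr13:13182466-13182715 on the plus strand. They are written 5′ to 3′ in the direction of transcription, and capitals mark the AP-1 letters of Prl2c3 with the aligned letters of Prl2c5, and then GATAA.
Prl2c3: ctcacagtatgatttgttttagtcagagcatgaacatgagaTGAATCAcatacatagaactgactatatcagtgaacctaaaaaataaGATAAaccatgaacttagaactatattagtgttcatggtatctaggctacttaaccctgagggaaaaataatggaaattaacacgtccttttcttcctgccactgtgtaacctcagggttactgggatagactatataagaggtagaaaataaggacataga
Prl2c5: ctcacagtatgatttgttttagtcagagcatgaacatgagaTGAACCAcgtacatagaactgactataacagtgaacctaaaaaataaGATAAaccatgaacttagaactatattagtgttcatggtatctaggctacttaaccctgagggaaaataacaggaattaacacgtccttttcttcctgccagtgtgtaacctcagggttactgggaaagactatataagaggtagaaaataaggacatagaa

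Aligned over 251 columns, the sequences were identical at 241, or 96.0%, with 8 mismatches and 2 gap columns. The AP-1 motif TGANTCA was found in Prl2c3 as TGAATCA, 209 bases before the start site. At the aligned place Prl2c5 reads TGAACCA, which is not a match. The motif occurs in 7.81% of 32851 RefSeq windows of 300 bases (250 before and 50 after the start site, both strands searched). GATAA, the core bound by GATA factors, occurred in both members, 162 bases before the start, and in 25.4% of windows. The antioxidant response element TGACNNNGC (12.4% of windows) and the xenobiotic response element GCGTG (32.4%) had 0 matches in both. None of these motifs overlaps another in the members, and a match or its absence describes letters in this window only.

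Genes for 4 AP-1 subunits were called higher at every dose, and their part in the proliferin signal was not tested. Of 15 genes for AP-1 subunits and the kinases and growth factor above them, 14 were detected. By their brightest probes 4, 5 and 6 were called higher at the low, medium and high dose with 0 lower, where 2.21%, 4.29% and 5.47% of all detected genes were called higher. The median change of the 14 was 0.16, 0.20 and 0.22.

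Atf3, a stress-induced partner of Jun, was the most changed, from log2 ratios of -2.63 to -1.63 in controls to 0.12 to 0.47, 0.29 to 0.74 and 0.43 to 1.31 with exposure. Its rise was 2.47 (SE 0.16), 2.72 (SE 0.16) and 3.17 (SE 0.16), with limma adjusted p of 5.19e-08, 7.51e-09 and 3.31e-10. Fosl1, which codes for the Fos-related subunit Fra-1, rose by 2.01, 1.90 and 2.23 (SE 0.31, 0.32 and 0.31; limma adjusted p 0.000509, 0.00069 and 5.45e-05). For both genes the exposed arrays with a value all lay above every control.

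Jun rose by 1.19, 1.45 and 1.58 (limma adjusted p 5.15e-06, 3.59e-07 and 4.05e-08). Fos rose by 1.14, 0.98 and 1.09 (limma adjusted p 0.000174, 0.000649 and 9.7e-05), but its control level is imprecise, since it was detected on 3 of 5 control arrays. Jund rose by 0.86 at the medium and 1.25 at the high dose (limma adjusted p 0.0146 and 0.000287) and differed by 0.39 at the low dose (limma adjusted p 0.421). Fosb rose by 0.79 at the high dose (limma adjusted p 0.0131). In the fit that blocked on replicate number instead of slide, Fosb was also called at the low dose (0.65, limma adjusted p 0.00872). The medium dose call of Jund was lost in 8 of 41 settings, among them median centring (0.97) and leaving out control replicate 5 (0.72) or medium dose replicate 5 (0.76), and the high dose call of Fosb was lost without control replicate 1 (0.66) or control replicate 4 (0.67). Junb, at 0.12, -0.05 and -0.01, and Egfr, the receptor of the growth factor in the medium, at -0.12, -0.15 and -0.30, were not called by their brightest probes, and 1 of the 2 other detected probes of Egfr was called lower at the high dose. The kinase gene Mapk3 differed by -0.34, -0.66 and -0.60 and was not called by its brightest probe. Its other detected probe was called lower at the medium and high dose.

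The rest of the prolactin family was near or below the detection level. Of 23 other family and growth hormone genes, 22 had a probe, 4, 3 and 4 were detected at the low, medium and high dose, and 0 were called by limma at any dose, with 0, 0 and 1 at an unadjusted p under 0.05. Either direction was called for 5.28%, 8.97% and 11.9% of all detected genes. Prl3d1, a placental lactogen gene of trophoblast giant cells, was detected in all groups and differed from control by 0.20, 0.11 and 0.39. Prl3b1, another placental lactogen gene, differed by 0.07, -0.10 and 0.05. Prl itself was detected on 0 control arrays and 2 of 17 exposed arrays. Of the 13 trophoblast markers, 7, 8 and 7 were detected and 0 were called by limma, with 1 at an unadjusted p under 0.05 at each dose. Their part in the proliferin values was not tested.

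Receptors of the family were detected, but not equally far above the negative control level. The median Cy5 signal over all arrays was 11.0 times that level for Igf2r and 1.38 times for Prlr. Prlr was detected on 4 of 6 low dose arrays, and a ratio so near the detection level can hide a change. Igf2r, the receptor that binds proliferin, differed from control by 0.16, -0.03 and 0.08, and Prlr, the prolactin receptor, by -0.04, -0.10 and -0.03, and neither was called. Of 12 receptor and signalling genes, 11, 12 and 12 were detected and 0, 0 and 1 were called by limma in either direction, beside 5.28%, 8.97% and 11.9% of all detected genes, with 5, 5 and 7 at an unadjusted p under 0.05. The called gene was Stat3, a transcription factor of cytokine receptors, which fell by 0.68 at the high dose (limma adjusted p 1.14e-05) and differed by -0.37 and -0.51 at the low and medium dose, short of 1.5-fold. Blocked on replicate number instead of slide, the fit called 1, 0 and 2 genes of this list. Jak2, the kinase bound to the prolactin receptor, differed by -0.52, -0.57 and -0.45, and Socs2, a feedback inhibitor of that pathway, by 0.32, 0.45 and 0.49, both short of 1.5-fold. The other Socs genes of the list did not follow Socs2. Socs3 differed by -0.29, -0.50 and -0.53 and Socs1 by -0.04, 0.01 and 0.06, and neither was called. Stat5a differed by -0.59, -0.41 and -0.47 and was not called.

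**Figure D4:**
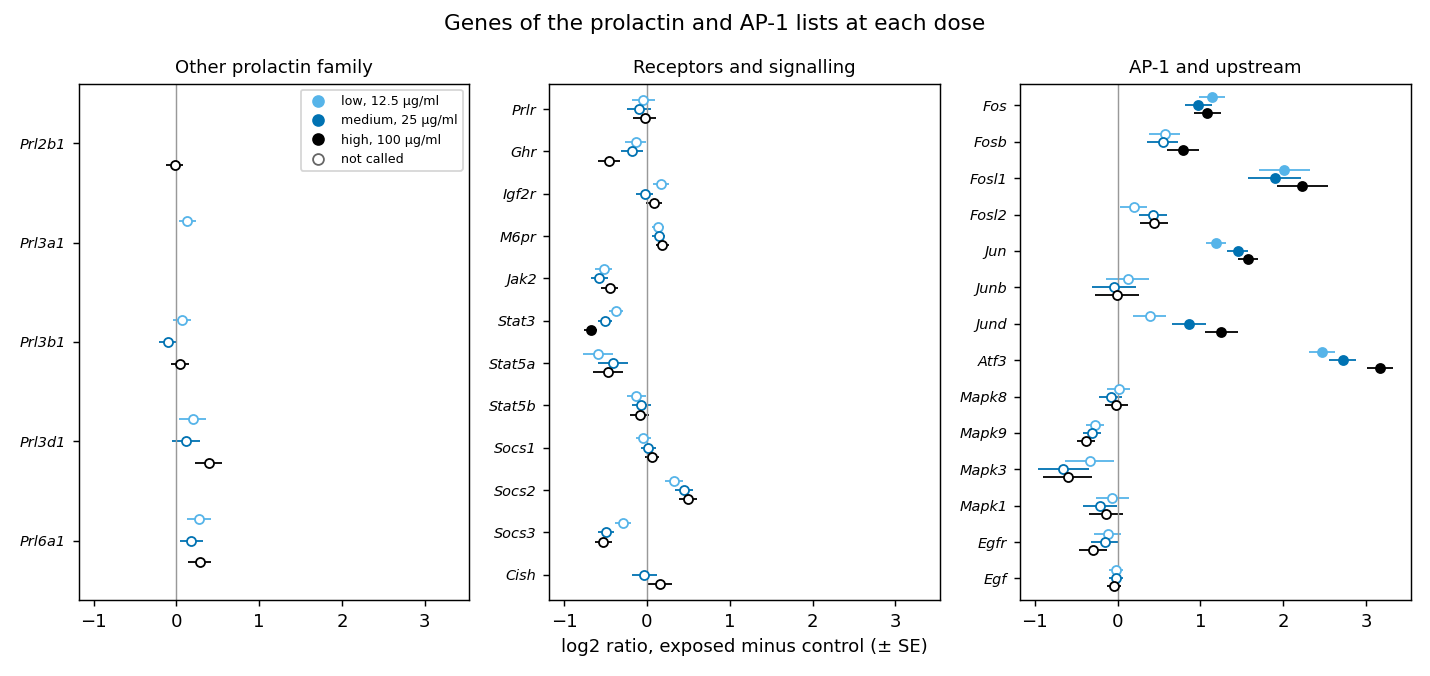
Log2 ratio of exposed minus control arrays (horizontal axis, ± SE) for the detected genes of 3 lists, other prolactin family, receptors and signalling, and AP-1 with its upstream genes, with 1 colour per dose. Filled points were called and open points were not; called genes reach 3.17 (Atf3, high dose) in the AP-1 list, Stat3 alone was called in the receptor list, and none in the prolactin family list.

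Of the marker lists, that of fibroblasts held the most called genes. Of 8 fibroblast markers, 5, 6 and 6 were called lower, with 0 higher, and the list median was -0.80, -1.16 and -1.43. After median centring the low and medium dose counts were 2 and 3, and without slide 1 the low dose count was 1. At the high dose Col1a1 fell by 1.34, Col1a2 by 1.52, Col3a1 by 1.70, Pdgfra by 1.53, Pdgfrb by 1.34 and Dcn by 2.27, all of them matrix or growth factor receptor genes, where 3.06%, 4.68% and 6.44% of all detected genes were called lower at the 3 doses. Of 14 lung epithelial markers, 7, 8 and 8 were detected and 1 was called at each dose, beside 5.28%, 8.97% and 11.9% of all detected genes in either direction. It was Hopx, an alveolar type I gene that fell by 1.33, 1.59 and 2.08. In the leukocyte list 5 genes were detected and 0 called by limma (0, 1 and 0 at an unadjusted p under 0.05), and in the endothelial list 2 were detected and 0 called (0 at an unadjusted p under 0.05). The part of these in the proliferin values was not tested, and in a bulk sample fewer cells of a type and less RNA per cell cannot be told apart.

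The genes that flank the proliferins on chromosome 13 were examined as 5 on each side, in the gene order of GRCm38.p6. Beside the block of Prl2c3, Prl2c2 and Prl2c5, 6 of 10 genes were detected, and 1, 2 and 2 were called higher, with 0 lower, where 2.21%, 4.29% and 5.47% of all detected genes were called higher. Gpr137b, which codes for a lysosomal membrane protein, rose by 0.97, 1.31 and 1.68, and Heatr1, a ribosome biogenesis gene, by 0.65 and 0.70 at the medium and high dose. Nid1 and Lyst, on the same side as Gpr137b, were not called. Beside Prl2c1, the nearest neighbours are themselves prolactin family genes, none of them detected. Of the 3 detected neighbours 1 was called, Sox4, a transcription factor gene whose brightest probe rose by 0.84, 1.11 and 1.10. The other detected probe of Sox4 was not called higher at any dose. The low dose calls of Gpr137b and Sox4 were lost after median centring (0.83 and 0.71) and without the slide term (0.88 and 0.97), and that of Sox4 at the medium dose without the slide term (1.11, limma adjusted p 0.0963). The Heatr1 calls were both lost after median centring (0.75 and 0.66, limma adjusted p 0.514 and 0.488), and the medium dose call also without control replicate 5 (0.58). Detection of the neighbours does not show which transcripts the Prl2c1 probe binds. Whether the signal of this probe came from Prl2c1 alone was not tested.

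The genes whose pattern was most like that of the proliferins were found by Pearson correlation with the mean of the member probes over all 22 arrays, adjusted for slide, among 16025 probes of 12820 genes. The closest were Mmp13 (r = 0.99) and Mmp10 (r = 0.98), both matrix metalloproteinase genes, Edn1 (r = 0.97), which codes for endothelin-1, and Lamb1 (r = 0.97), a laminin gene. They were followed by Gsto2, Tcim, Itprip, Ifit1, Cttnbp2nl and Slc39a6, with r of 0.96 each. In all, 113 probes had r above 0.9, and the arrays share slides, the reference and the step from 5 control to 17 exposed arrays.

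The steps differed in size. The slide-adjusted member mean lay at -0.42 to -0.25 in controls and at 2.15 to 3.20 with exposure. Mmp13 went from a control range of -0.85 to -0.07 to an exposed range of 2.52 to 3.71, and Mmp10 from -0.03 to 0.34 up to 2.40 to 4.11. Edn1 started at 1.18 to 1.54 and reached 2.29 to 2.77. After the group and slide means were removed, r with the members was 0.74 for Mmp13, 0.75 for Mmp10 and 0.70 for Edn1, as a description over the same 22 arrays.

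**Figure D5:**
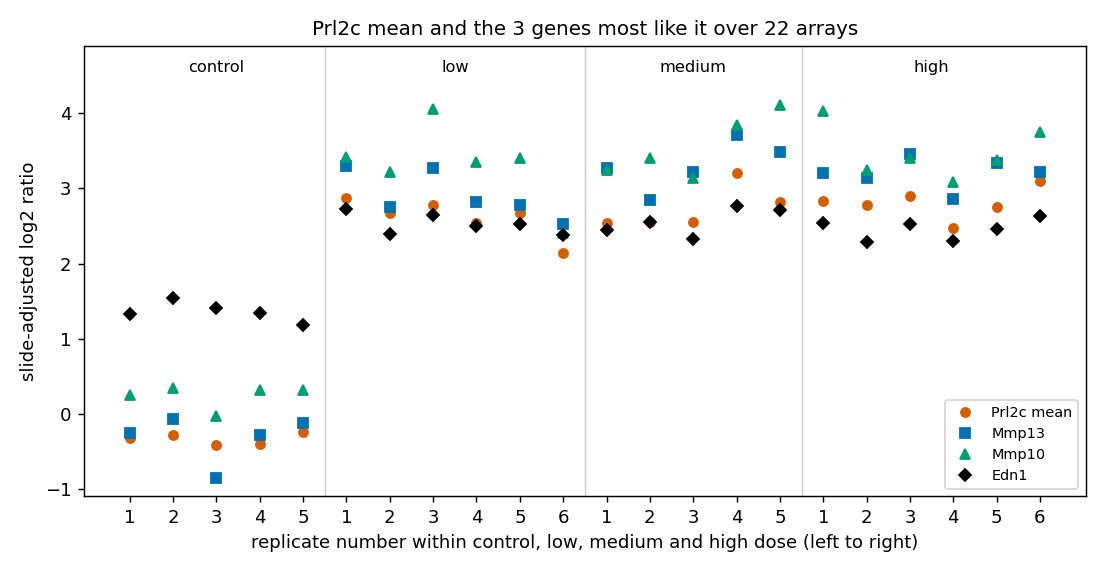
Slide-adjusted log2 ratio (vertical axis) on each of the 22 arrays (horizontal axis, replicate number within the control, low, medium and high dose groups) for the mean of the Prl2c probes and the 3 genes most like it, Mmp13, Mmp10 and Edn1. Controls of the Prl2c mean lie between -0.42 and -0.25 and exposed arrays between 2.15 and 3.20; the other genes step up between the same groups.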

How the data were processed

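Two-colour Agilent arrays of FE1 cells were analysed, 5 control, 6 low, 5 medium and 6 high dose. The authors deposited scanner output with the median intensity per spot and channel, not normalized. The headers name Feature Extraction 10.7.3.1, a scanner resolution of 3 µm and the grid annotation mm9; the study's methods name another software version and resolution. A log10 ratio made by the scanner software was deposited beside the intensities. The authors' processed log2 ratios (series matrix) were an alternative. Their normalization and centring are not stated; their column medians were 0.0043 to 0.027, and each of the 22 columns correlated best with its own array (r = 0.84 to 0.99).

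Control spots (3671) were left out and spots marked as outliers set to missing. Log2 ratios of Cy5 to Cy3 were taken from median signals with no background subtracted and loess-normalised within arrays, and spots of a probe were joined by their median. A probe was detected where its Cy5 signal was over the mean of 308 negative control spots, trimmed by 5%, by more than 3 trimmed SDs. Intensities carry no counts, so no counting interval applies.

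Symbols came from RefSeq (GRCm38.p6) by accession. One model over 22 arrays with group and slide was fitted with limma 3.58.1 in R 4.3.3 (prior degrees of freedom 5.51), as the study's methods describe with a permutation test that is not installed. Benjamini-Hochberg adjustment ran over all probes. Called probes had an adjusted p at most 0.05, a 1.5-fold difference and detection on 4 or more arrays of 1 of the groups, or all arrays where fewer were left. A gene of a list is given by its brightest probe. The text names the members, every list or flanking gene called at a dose and the 10 genes most like the members; others were added after their values were seen. Members and lists were chosen with earlier results of these data known. The fit was tested on simulated data.

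Same-numbered samples of different groups deviated together (r = 0.19 to 0.82, median 0.55, in 27 pairs on the same slide, 0.27 to 0.49, median 0.45, in 4 pairs on different slides). Pairs of unlike number had r = 0.06 to 0.58 (median 0.33) in 16 pairs on the same slide. On different slides they had -0.71 to 0.50 (median -0.19) in 134 pairs. The numbers may thus pair the samples, but same-numbered samples mostly shared a slide. The number as a block was an alternative. Any pair of arrays shared the Cy5 signal of at most 2.36% of spots, so none was taken as a duplicate. Alternatives covered normalization, background, channel, outlier marks, slide, arrays left out, thresholds and detection.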

Additional observations from a re-analysis of the deposited data

Results flagged for a closer look

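Of 12 sets of a probe and a group, 3 held an array apart from the others by Dixon's criterion, where chance marks about 1 in 20. For Prl2c5 probe A_55_P2004752, control replicate 4 lay at -0.96 while the other controls lay between -0.34 and -0.20. For Prl2c1 probe A_55_P2183208 the same array lay at -0.65, with the other controls between -0.28 and -0.24. For A_55_P2004752, high dose replicate 5 lay at 1.61, with the other high dose arrays between 2.71 and 3.06.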

How the results depend on the processing

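The members kept their direction against control in all settings tried, with a median over the 3 probes of 2.78 to 3.08 (low dose), 2.84 to 3.62 (medium dose) and 2.80 to 3.30 (high dose). The largest moves were 2.95 at the high dose with the authors' processed values, and 3.62 at the medium and 2.80 at the high dose within slide 2. Leaving out single arrays gave 2.89 to 2.97, 2.91 to 3.13 and 3.04 to 3.24. No member probe was called between doses in any of 40 settings, where the lowest adjusted p was 0.444; signs of these small differences turned in up to 10 of them. With a replicate block instead of slide, the medians were 2.93, 3.00 and 3.19, and no call of a member changed. Of the prolactin family, receptor and AP-1 lists, the receptor and signalling count moved past 1.5 times. At the low dose it was 1 and not 0 with the scanner's own ratio, normexp, slide as a random block, the replicate block, or without slide 3. At the medium dose it was 1 with Cy5 alone or without slide 3. At the high dose it was 0 after median centring and 2 with the scanner's own ratio, the replicate block, or without slide 2. With no fold threshold it was 2, 4 and 5. Leaving out single arrays gave 0 to 1, 0 to 1 and 1 to 2, where the arrays that changed it were low dose replicate 6 at the low dose, control replicates 2 and 3 and medium dose replicates 1 and 5 at the medium dose, and control replicate 4 at the high dose. The cause was not tested. Median centring also ended the calls of Jun (1.05), Gpr137b (0.83) and Sox4 (0.71) at the low dose, Jund (0.97) at the medium dose, Stat3 (-0.72) at the high dose and Heatr1 at the medium and high dose (0.75 and 0.66). It ended those of Col1a1 (-1.03 and -0.96), Col1a2 (-0.93 and -1.11) and Dcn (-1.64 and -1.77) at the low and medium dose, so the fibroblast count went from 5 to 2 and from 6 to 3, and stayed at 6 for the high dose. At the low dose that count was also 1 without slide 1, and 3 without slide 3 or with only the compared groups fitted.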
